A study of Mus musculus with 18 samples.

Results

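The genes described here are 32 genes of glycolysis, gluconeogenesis and glycogen metabolism in the mouse liver. They were chosen by name among the 35441 genes of the deposited count table, as glucose transporters, hexokinases, enzymes of upper and lower glycolysis, gluconeogenic enzymes, glycogen enzymes, and the regulators at the gates to the pyruvate dehydrogenase and pentose phosphate routes. All 32 had more than 100 reads over the 18 livers, the limit for testing, which 14533 genes passed. G6pc1 is listed in the table under its older symbol G6pc. Liver RNA was sequenced from male mice on a C57BL/6N background in 6 groups of 3 animals. WT mice carried intact Lipa, the gene of lysosomal acid lipase, and were not treated. Lipa-/- mice (KO in the labels) lacked exon 4 of Lipa in all tissues after a cross with a CMV-Cre line, and were not treated. rAAV8-treated Lipa-/- mice (KOT) carried the same deletion and had received, by tail vein at 10 to 12 weeks of age, a single-stranded rAAV8 vector with the human LIPA cDNA under the human α1-antitrypsin promoter, which is active in hepatocytes. Each kind of mouse is grouped here as 12- or 34-weeks post-injection, which the labels give as 3 and 8 months. The mice of the 2 times were different animals from differently coded experiments, so time and experiment cannot be told apart, and 1 of the Lipa-/- mice at 12-weeks carried a code of its own. Most untreated Lipa-/- mice of the long experiment did not live to its end and were killed at predefined endpoints. The paper states that only 1 of them was alive at 34-weeks. The 3 Lipa-/- livers labelled 34-weeks therefore cannot all be of that time, and their ages at death are not given. In comparisons with these livers, genotype, age and endpoint illness cannot be told apart. The animals ate standard chow ad libitum, and whether they were fasted before sacrifice is not given in the sources used here. p-values measure the spread between mice of a group.

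Salmon assigned 17527848 to 25833134 reads to genes in each liver, and the 32 genes held 0.451% to 1.13% of them. Levels are given as CPM (read counts relative to the library's size, scaled with edgeR's TMM factors), and for comparisons between genes as TPM (transcript abundance relative to the library's total, per length). At these depths 3 reads correspond to 0.0946 to 0.291 CPM. The targeted gene followed the labels, with 62.2 to 133 TPM of murine Lipa in WT mice against 5.37 to 14.1 TPM in both kinds of Lipa-/- mice, and the vector's LIPA transcript reached 519 to 2493 TPM in treated mice and at most 0.986 TPM elsewhere. The livers of treated mice at 12-weeks stood apart in base composition. Relative to WT mice of that time, their genes in the lowest 20% of GC content had a median log2 fold change of 0.40 and those in the highest 20% one of -0.32, most of all in the mouse numbered 10 (0.54 and -0.64), while Lipa-/- livers leaned the other way (-0.22 and 0.27 at 12-weeks). The calls at 12-weeks in treated mice, against WT and against Lipa-/- mice, are therefore also given with this trend removed. So are the calls in Lipa-/- against WT mice. The removal was not done for the isozyme ratios.

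In liver, glucose enters hepatocytes through the high-capacity carrier GLUT2 (Slc2a2), whereas most other cells, macrophages among them, use GLUT1 (Slc2a1), and the low-Km hexokinases trap it there. Glycolysis splits glucose to pyruvate. Gluconeogenesis runs the other way through pyruvate carboxylase, PEPCK, fructose bisphosphatase and glucose-6-phosphatase, and glycogen stores glucose in the fed state and returns it by way of glycogen phosphorylase. Hepatocytes use their own isozymes at most controlled steps, such as L-type pyruvate kinase (Pklr), glycogen synthase 2 (Gys2) and liver phosphorylase (Pygl). In the adult body, the M-type pyruvate kinase (Pkm), aldolase A (Aldoa) and brain phosphorylase (Pygb) prevail in other cells, including macrophages.

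The promoters of 3 such pairs are shown because the isozymes of each pair were called in opposite directions in Lipa-/- livers at 12-weeks and their promoters differed in CG content. Pygl and Pygb, also called in opposite directions, are not shown because their windows did not differ in this way. Each stretch holds 150 bases just upstream of the start in RefSeq's table for GRCm38.p6, on the plus strand, written 5′ to 3′ with CG in capitals.
Slc2a2, chr3:28697753-28697902: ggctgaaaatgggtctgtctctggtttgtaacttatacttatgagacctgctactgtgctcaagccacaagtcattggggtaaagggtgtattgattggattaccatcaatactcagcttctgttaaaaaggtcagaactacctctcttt
Slc2a1, chr4:119108595-119108744: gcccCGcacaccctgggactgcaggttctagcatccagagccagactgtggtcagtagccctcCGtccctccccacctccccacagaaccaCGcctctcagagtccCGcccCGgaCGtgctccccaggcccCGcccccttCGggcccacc
Pklr, chr3:89136473-89136622: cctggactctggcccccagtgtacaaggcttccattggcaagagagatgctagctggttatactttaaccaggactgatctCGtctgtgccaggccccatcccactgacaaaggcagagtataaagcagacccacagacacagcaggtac
Pkm, chr9:59656426-59656575: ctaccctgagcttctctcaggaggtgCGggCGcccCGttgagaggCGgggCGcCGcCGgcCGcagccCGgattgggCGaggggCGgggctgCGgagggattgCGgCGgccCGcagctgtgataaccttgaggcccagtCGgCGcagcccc
G6pc1, chr11:101367566-101367715: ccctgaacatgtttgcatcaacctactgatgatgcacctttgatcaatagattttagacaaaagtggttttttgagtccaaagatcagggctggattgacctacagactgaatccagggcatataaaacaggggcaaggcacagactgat
G6pc3, chr11:102189549-102189698: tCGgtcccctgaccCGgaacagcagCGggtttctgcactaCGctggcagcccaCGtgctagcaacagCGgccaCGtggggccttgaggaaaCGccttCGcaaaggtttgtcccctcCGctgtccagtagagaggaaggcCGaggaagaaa
In the full windows of 300 bases (250 before and 50 after the start), the liver isozymes held 2 (Slc2a2), 4 (G6pc1) and 8 (the Pklr window shown) CG dinucleotides. Their partners held 18 (Slc2a1), 20 (G6pc3) and 27 (Pkm), a contrast for which these pairs were chosen. Over all 32851 windows of the table the median was 7, with quartiles of 3 and 20. The contrast did not extend to every pair, since Pygl and Pygb held 22 and 21, and Pfkl and Pfkp 20 and 21. TATAAA, searched on both strands, lay in the G6pc1 and Slc2a1 windows, in 1 of 2 Pklr windows and in 13.6% of all windows. The Pklr window shown was picked for holding TATAAA. Elsewhere among the 32 genes, 1 window each of Pfkfb1, Slc37a4 and Pgm1 held it. A window was found for 31 of the 32 genes.

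A gene was called when its fold change exceeded 2 (log2 of 1) in either direction with an adjusted p under 0.05 in edgeR's quasi-likelihood test over all 14533 genes. In Lipa-/- against WT mice at 12-weeks, 9 of the 32 genes were called higher and 6 lower, where 29.3% of all genes were called (20.2% higher and 9.06% lower). At 34-weeks 10 were called higher and 15 lower, against 36.3% of all genes (20.5% higher and 15.7% lower). The median log2 fold change of the 32 genes was -0.23 at 12-weeks and -0.73 at 34-weeks, beside 0.02 and -0.03 over all genes. These splits depended on the scaling, since total counts moved the median of all genes by 0.47 at 12-weeks and 0.63 at 34-weeks relative to TMM. With total counts 10 higher and 4 lower were called at 12-weeks, and with limma on TPM 10 higher and 3 lower. At 34-weeks total counts and limma on TPM each gave 12 higher and 6 lower, and scaling to hepatocyte markers gave 11 higher and 6 lower. The 6 genes called lower in all 3 of these settings were Slc2a2, Pklr, Pcx, Fbp1, Slc37a4 and Pygl. Of the 32 genes, 10 were higher and 14 lower in all Lipa-/- than in all WT mice at 12-weeks (28.6% and 24.1% of all genes), and 11 higher and 16 lower at 34-weeks (30.5% and 29.8%). No called gene changed direction under any setting tried. Every gene that was called at 12-weeks was called in the same direction at 34-weeks.

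**Figure D1:**
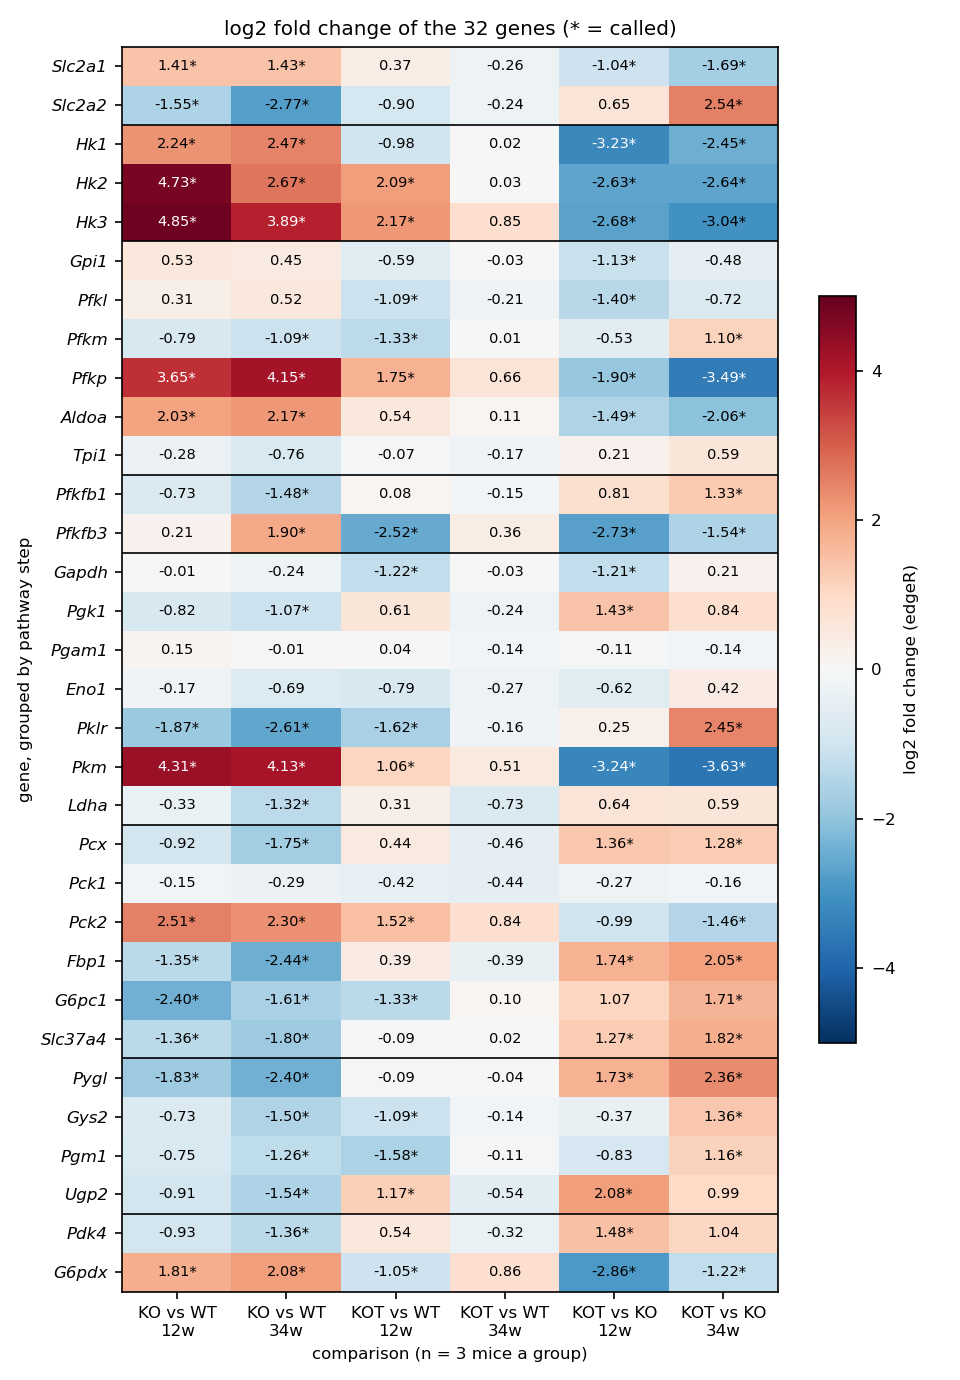
Log2 fold change (edgeR, colour and number) of the 32 genes, in rows by pathway step, in 6 comparisons of 3 against 3 mice, with * for called genes. WT, Lipa-/- (KO) and rAAV8-treated Lipa-/- (KOT) mice are compared at 12 and 34 weeks, and the column of treated against WT mice at 34 weeks holds no called gene.

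The carriers of glucose moved in opposite directions. Slc2a2, the liver carrier, was measured at 187, 196 and 291 CPM in WT mice and 45.5, 88.2 and 96.8 CPM in Lipa-/- mice at 12-weeks, and at 201, 239.9 and 348 CPM against 43.7, 15.2 and 56.5 CPM at 34-weeks. All Lipa-/- livers lay below all WT livers at both times. The log2 fold change was -1.55 ± 0.42 (SE, adjusted p = 0.00715, edgeR) at 12-weeks and -2.77 ± 0.43 (adjusted p = 6.70e-05) at 34-weeks, a 6.83-fold lower level. Slc2a1 stood at 10.4, 11.8 and 8.90 CPM in WT and 29.0, 24.9 and 28.9 CPM in Lipa-/- mice at 12-weeks, and at 11.7, 11.2 and 10.9 against 30.6, 32.7 and 27.5 CPM at 34-weeks. It rose 2.65-fold and 2.69-fold (adjusted p = 5.04e-05 and 3.04e-05, edgeR), and its share of the summed TPM of both carriers was 4.83% ± 1.31 (SD, n = 3) in WT and 29.9% ± 11.1 in Lipa-/- mice at 12-weeks, against 4.28% ± 0.604 and 50.9% ± 18.4 at 34-weeks.

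All 3 low-Km hexokinases rose. Hk1, the ubiquitous form, was at 2.09, 1.05 and 2.09 CPM in WT and 8.06, 6.29 and 10.5 CPM in Lipa-/- mice at 12-weeks (log2 fold change 2.24 ± 0.39, SE, adjusted p = 2.50e-04, edgeR). At 34-weeks it was at 1.12, 4.18 and 3.19 against 19.96, 13.6 and 14.2 CPM (2.47, adjusted p = 5.98e-05). Hk2, the insulin-responsive form of muscle and fat, was barely present in WT livers at 12-weeks with 5 to 12 reads a mouse. It was at 0.643, 0.239 and 0.314 CPM there, against 15.4, 9.32 and 7.07 CPM in Lipa-/- mice (log2 fold change 4.73 ± 0.66, adjusted p = 3.19e-05). At 34-weeks the WT mice themselves spread over 0.531, 4.37 and 2.18 CPM, still below the 17.5, 18.2 and 10.3 CPM of Lipa-/- mice (2.67, adjusted p = 8.50e-04). Hk3, a form of myeloid cells, rose from 2.52, 2.63 and 1.57 to 66.0, 60.8 and 67.2 CPM at 12-weeks and from 4.31, 5.44 and 2.18 to 70.0, 60.4 and 46.8 CPM at 34-weeks. Its log2 fold changes were 4.85 ± 0.44 (adjusted p = 4.37e-07) and 3.89 ± 0.42 (adjusted p = 1.64e-06, edgeR). Per length, Hk3 reached 35.0 ± 12.2 TPM (SD, n = 3) in Lipa-/- livers at 34-weeks, where WT livers had 1.46 ± 0.749 TPM.

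In upper glycolysis 2 of 6 genes rose at both times, and the phosphofructokinase subunits each behaved differently. The share called there was 33.3% at 12-weeks and 50% at 34-weeks, beside 29.3% and 36.3% of all genes. Pfkp, the platelet subunit, went from 1.39, 1.91 and 1.26 to 14.8, 17.98 and 25.02 CPM at 12-weeks and from 2.01, 2.76 and 1.95 to 40.2, 31.7 and 47.5 CPM at 34-weeks, 12.6-fold and 17.7-fold increases (adjusted p = 3.89e-07 and 1.24e-07, edgeR). Pfkm, the muscle subunit, was at 11.1, 15.6 and 19.6 CPM in WT and 8.64, 5.91 and 7.17 CPM in Lipa-/- mice at 34-weeks (log2 fold change -1.09 ± 0.38, adjusted p = 0.0262), a call that was lost when any of 4 mice was left out and in all 3 other scalings of the counts. The liver subunit Pfkl was not called, at 30.5, 30.3 and 39.9 against 42.6, 38.6 and 43.9 CPM at 12-weeks (0.31, adjusted p = 0.35) and 31.1, 46.8 and 47.3 against 63.4, 59.7 and 56.3 CPM at 34-weeks (0.52, adjusted p = 0.0985). Aldoa, the aldolase of muscle and most other cells, rose from 94.9, 154 and 88.2 to 442, 404 and 527 CPM at 12-weeks and from 105, 87.1 and 98.7 to 450.3, 467 and 388 CPM at 34-weeks (log2 fold change 2.03 ± 0.24 and 2.17 ± 0.24, adjusted p = 5.09e-06 and 2.01e-06). The shared enzymes of the pathway were not called with TMM scaling. Glucose-6-phosphate isomerase (Gpi1) had log2 fold changes of 0.53 and 0.45 (adjusted p = 0.0779 and 0.12) and triose phosphate isomerase (Tpi1) of -0.28 and -0.76 (adjusted p = 0.37 and 0.0134). Gpi1 was called higher with total counts (1.01 at 12-weeks and 1.05 at 34-weeks) and, at both times, with limma on TPM (1.35 at 12-weeks), and so was Pfkl at 34-weeks (1.13 with total counts and 1.12 with limma), also with hepatocyte scaling (1.05).

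The bifunctional enzymes that make and break fructose-2,6-bisphosphate, the activator of phosphofructokinase, diverged at 34-weeks. Pfkfb1, the liver form, was at 25.8, 30.5 and 30.9 CPM in WT and 8.92, 10.6 and 11.9 CPM in Lipa-/- mice (log2 fold change -1.48 ± 0.18, adjusted p = 4.90e-06, edgeR). Pfkfb3, the inducible form with high kinase activity, was at 1.36, 5.75 and 4.40 against 16.6, 13.6 and 13.3 CPM (1.90 ± 0.40, adjusted p = 8.45e-04). The Lipa-/- livers thus lay apart from WT livers in both genes, in opposite directions. The call of Pfkfb3 was kept in every scaling, whereas that of Pfkfb1 was lost with total counts (-0.87), hepatocyte scaling (-0.98) and limma on TPM (-0.68). At 12-weeks Pfkfb1 was at 35.3, 35.3 and 32.7 against 25.02, 20.2 and 16.9 CPM (-0.73, adjusted p = 0.00305), under the fold limit, and Pfkfb3 overlapped at 5.89, 5.36 and 10.9 and 8.09, 9.79 and 7.72 CPM (adjusted p = 0.706).

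Among the 7 genes of lower glycolysis, the pyruvate kinases carried the change at both times. The share called was 28.6% at 12-weeks and 57.1% at 34-weeks, beside 29.3% and 36.3% of all genes. Pkm was at 13.3, 17.04 and 12.0 CPM in WT and 189.6, 203 and 444 CPM in Lipa-/- mice at 12-weeks, and at 16.1, 25.6 and 19.3 against 459, 294 and 318 CPM at 34-weeks. The increases were 19.8-fold and 17.5-fold (log2 fold change 4.31 ± 0.38 and 4.13 ± 0.38, adjusted p = 3.35e-07 and 3.68e-07, edgeR). Pklr, which makes up most pyruvate kinase of WT liver, fell from 499, 327 and 448 to 107, 105 and 137 CPM and from 209.8, 329 and 692 to 57.9, 48.7 and 94.5 CPM (log2 fold change -1.87 ± 0.42 and -2.61 ± 0.43, adjusted p = 0.0021 and 1.10e-04). The order of the pair was thereby turned. On GRCm39 Pklr lies on chromosome 3 from 89043449 to 89054619 and Pkm on chromosome 9 from 59563364 to 59586663. Pkm made up 3.12, 6.07 and 3.13% of the summed pyruvate kinase TPM in the WT mice and 68.8, 70.6 and 79.9% in the Lipa-/- mice at 12-weeks, and 8.30, 9.22 and 3.38% against 90.8, 87.6 and 80.6% at 34-weeks. The gene-level table does not separate the M1 and M2 transcripts of Pkm. Of the enzymes between, phosphoglycerate kinase (Pgk1) was at 480.5, 325 and 337 against 173, 139 and 230.0 CPM at 34-weeks (log2 fold change -1.07, adjusted p = 0.00528), a call lost in all 3 other scalings and without WT mouse 1 or Lipa-/- mouse 5. That call was also lost with the GC and length trend removed (-0.73). Lactate dehydrogenase A (Ldha) fell from 1742, 1219.8 and 976 to 474, 549 and 555 CPM (-1.32 ± 0.25, adjusted p = 3.21e-04) and was not called at 12-weeks (-0.33, adjusted p = 0.307). Its call was lost with total counts (-0.66), hepatocyte scaling (-0.76) and limma on TPM (-0.60). Gapdh (-0.01 and -0.24), phosphoglycerate mutase Pgam1 (0.15 and -0.01) and enolase Eno1 (-0.17 and -0.69) were not called, with adjusted p from 0.09 to 0.989. Near-identical copies listed in the table held at most 0.355% of the summed reads for Gapdh, 0.693% for Eno1, 0.0146% for Pgk1 and 0.0557% for Aldoa.

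**Figure D2:**
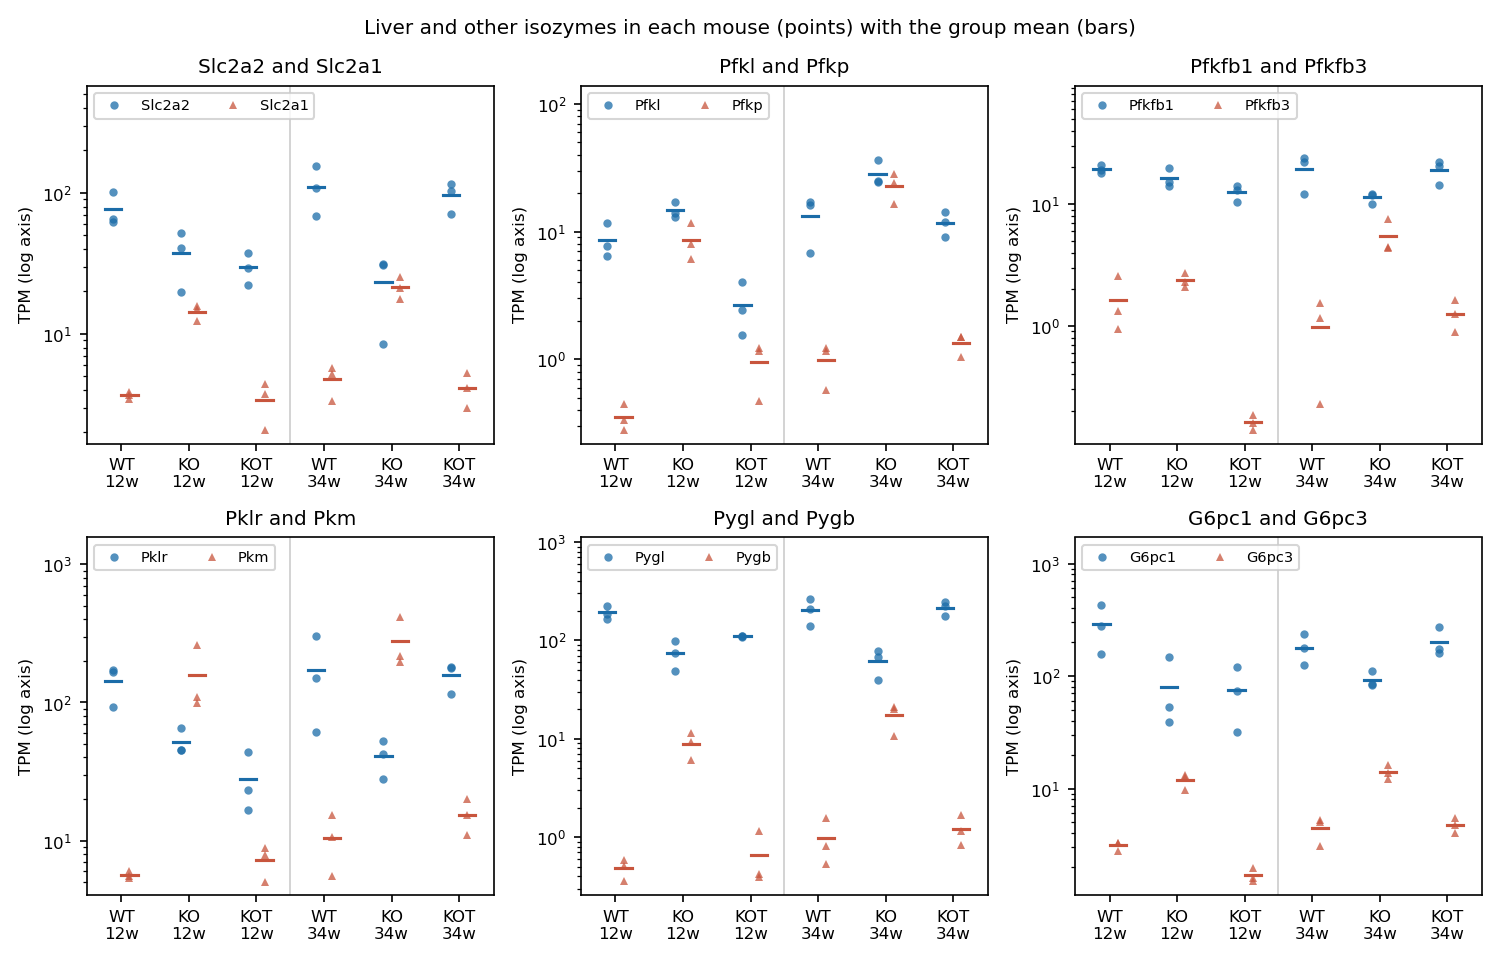
TPM on a log axis of the liver isozyme (blue circles) and another isozyme (red triangles) of 6 steps in each of the 3 mice of 6 groups, with bars at group means. In Lipa-/- (KO) livers the distance between the isozymes is smaller than in WT livers in all 6 panels, and Pkm lies above Pklr in every Lipa-/- mouse.

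Because a plain ratio of isozymes within a liver does not depend on the scaling between livers, 8 pairs were compared as log2 ratios, liver form over other form. The 0.1 added to each TPM brings back some dependence where an isozyme is scarce. Means in WT mice at 12-weeks were 0.352 TPM for Pfkp, 0.485 for Pygb and 0.503 for Gys1. The ratios also keep each liver's GC trend. In Lipa-/- against WT mice the ratio was lower for 7 pairs and higher for 1, by an exact two-sided permutation test over 400 arrangements of the labels within time points, and all 8 had an adjusted p under 0.05. For 6 of the 8 p was 0.005, the smallest that 400 arrangements can give (adjusted p = 0.006). The largest shifts among them were those of Pklr over Pkm (-6.06 at 12-weeks and -6.57 at 34-weeks) and Pygl over Pygb (-5.34 and -5.81). Slc2a2 over Slc2a1 fell by 3.03 and 4.53, and G6pc1 over G6pc3, the ubiquitous glucose-6-phosphatase, by 3.86 and 2.58. Smaller shifts were those of Gys2 over Gys1, the muscle glycogen synthase (-0.83 and -1.99, adjusted p = 0.015, exact permutation test), and of Pfkfb1 over Pfkfb3 (-0.88 and -3.32, adjusted p = 0.0109). The exception was Pfkl over Pfkm, which rose by 1.08 and 1.58, while Pfkl over Pfkp fell by 3.43 and 3.25. The 2 pairs that share Pfkl are not independent. Within 1 time point, 3 mice against 3 cannot give an exact p below 0.1.

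**Figure D3:**
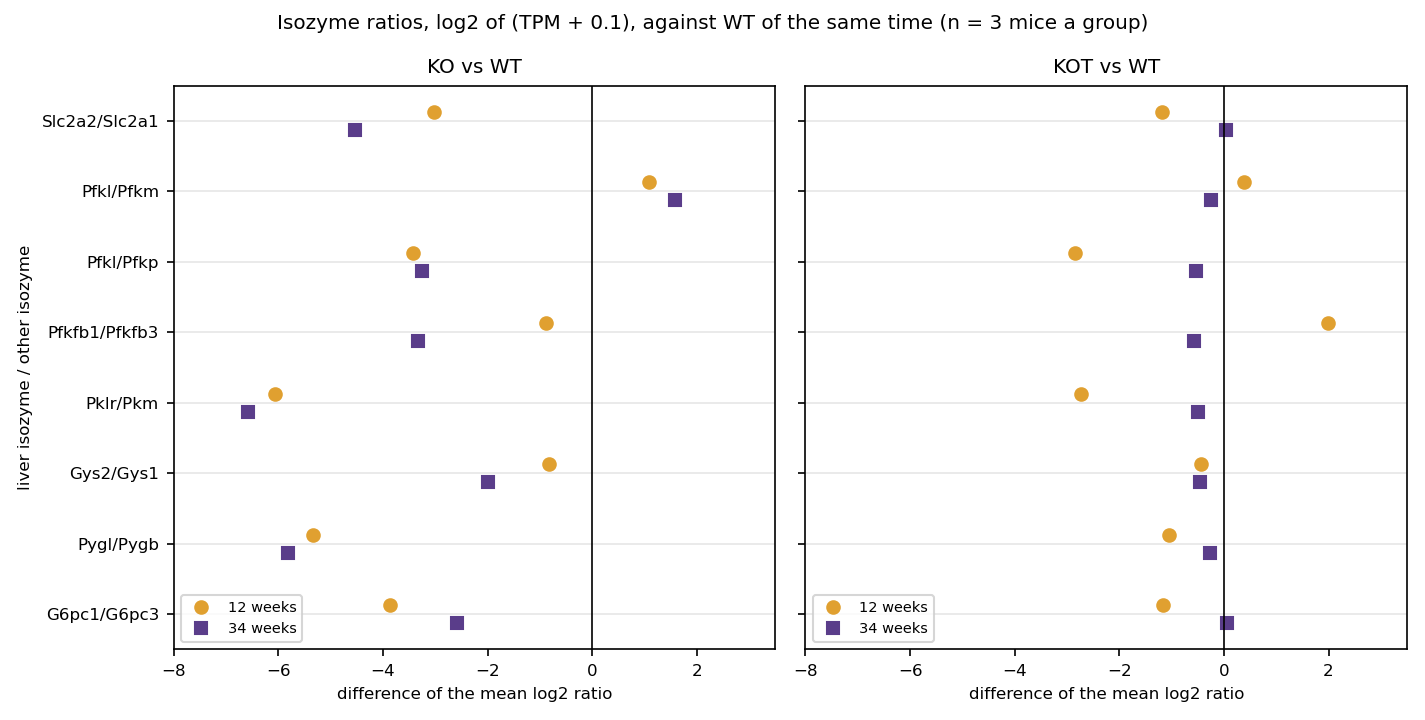
Difference from WT mice of the same time in the mean log2 ratio of liver isozyme over other isozyme, from TPM + 0.1, for 8 pairs in Lipa-/- (KO, left) and rAAV8-treated Lipa-/- mice (KOT, right), with circles for 12 weeks and squares for 34 weeks, n = 3 mice a group. In KO mice 7 pairs lie left of 0 at both times and Pfkl/Pfkm lies at 1.08 and 1.58, while KOT points at 34 weeks lie between -0.58 and 0.06.

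Markers of several other cell types were higher in Lipa-/- livers, while endothelial markers summed lower at 12-weeks. In Lipa-/- livers 11 of 12 macrophage markers were called higher at 12-weeks and 10 of 12 at 34-weeks, beside 20.2% and 20.5% of all genes. Their summed level was 7846 ± 2460.2 and 6393 ± 1181 CPM (SD, n = 3) against 257 ± 108 and 436 ± 139 CPM in WT mice. Clec4f, a marker of resident Kupffer cells, was the 1 macrophage marker called lower at 34-weeks. The 7 neutrophil markers summed to 129 to 1639 CPM in Lipa-/- mice at 12-weeks against 1.29 to 2.11 CPM in WT mice, the 5 cholangiocyte markers to 453 to 2233 against 29.4 to 58.7 CPM, and the 7 stellate markers to 339.6 to 565 against 40.2 to 71.8 CPM. Of 12 hepatocyte markers 4 were called lower at 12-weeks and 7 at 34-weeks, beside 9.06% and 15.7% of all genes. The sum of the 12 at 34-weeks was 54668 to 96292 CPM in Lipa-/- mice against 91379.8 to 117801 CPM in WT mice. The 8 lymphocyte markers summed to 10.5 to 14.4 CPM in Lipa-/- and 3.98 to 7.61 CPM in WT livers at 12-weeks, the 6 endothelial markers to 65.4 to 73.7 and 113 to 158 CPM, the 5 erythroid markers to 213 to 261 and 218 to 546 CPM and the 5 skeletal muscle markers to 0.932 to 1.37 and 0.838 to 6.89 CPM. The part of these cells in the isozyme values was not tested, and in bulk liver RNA fewer cells of a type and less RNA per cell cannot be told apart. With libraries scaled to the hepatocyte markers, 6 of the 32 genes were called lower at each time, and the same 9 genes were called higher at 12-weeks.

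Apart from the PEPCK genes, the gluconeogenic genes were lower in Lipa-/- livers. Of 6 genes, 3 fell and 1 rose at 12-weeks, and 4 fell and 1 rose at 34-weeks. These are 66.7% and 83.3%, beside 29.3% and 36.3% of all genes. Fructose-1,6-bisphosphatase (Fbp1) was at 1170.1, 1106 and 938 CPM in WT and 247, 512 and 502 CPM in Lipa-/- mice at 12-weeks, and at 1400.0, 1123 and 1283 against 206, 208 and 288 CPM at 34-weeks. Its log2 fold changes were -1.35 ± 0.29 (adjusted p = 0.00137, edgeR) and -2.44 ± 0.30 (adjusted p = 5.86e-06), so that Lipa-/- livers had 5.42-fold less of it at 34-weeks. G6pc1, the catalytic subunit that releases free glucose, varied widely among WT mice at 12-weeks (409, 1242 and 626 CPM), all above the 75.6, 101 and 255 CPM of Lipa-/- mice (-2.40 ± 0.51, adjusted p = 0.00137). At 34-weeks it was at 368, 324 and 458 against 125, 129 and 124 CPM (-1.61 ± 0.50, adjusted p = 0.0137). Slc37a4, which carries glucose-6-phosphate to that enzyme, fell from 142, 182 and 136 to 54.8, 61.7 and 63.0 CPM and from 112, 105 and 123 to 32.9, 28.4 and 35.9 CPM (-1.36 and -1.80, adjusted p = 2.69e-04 and 1.49e-05). Pyruvate carboxylase (Pcx) was at 452, 452 and 532 against 116, 152 and 160.4 CPM at 34-weeks (-1.75 ± 0.24, adjusted p = 1.81e-05) and just under the fold limit at 12-weeks (-0.92, adjusted p = 0.0051). With the GC and length trend removed, Pcx was called lower at 12-weeks too (-1.27, adjusted p = 7.79e-04, edgeR). With total counts and with limma on TPM, Fbp1 (-0.88 and -0.89) and Slc37a4 (-0.88 and -0.88) were not called at 12-weeks. G6pc1 was then not called at 34-weeks (-0.97 and -0.91), nor with hepatocyte scaling (-1.06, adjusted p = 0.0541).

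Pck1, the cytosolic PEPCK that fasting and glucagon induce, was not called in any comparison. It ranged over 298, 1047 and 1596 CPM in WT and 663, 1477 and 506 CPM in Lipa-/- mice at 12-weeks and over 1025, 673 and 1131 against 877, 1051 and 393 CPM at 34-weeks, and the groups overlapped at both times. The log2 fold changes of -0.15 ± 0.56 and -0.29 ± 0.56 had adjusted p = 0.854 and 0.705 (edgeR), with standard errors that leave room for a change of more than the fold limit. Pck2, the mitochondrial form, rose from 2.47, 2.01 and 1.68 to 8.34, 8.62 and 18.1 CPM at 12-weeks and from 2.54, 2.88 and 2.06 to 13.3, 10.5 and 13.2 CPM at 34-weeks (2.51 ± 0.31 and 2.30 ± 0.30, adjusted p = 7.71e-06 and 1.10e-05). Its level stayed far below that of Pck1, at 8.93 ± 2.89 against 523 ± 249.6 TPM in Lipa-/- mice at 34-weeks (SD, n = 3).

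**Figure D4:**
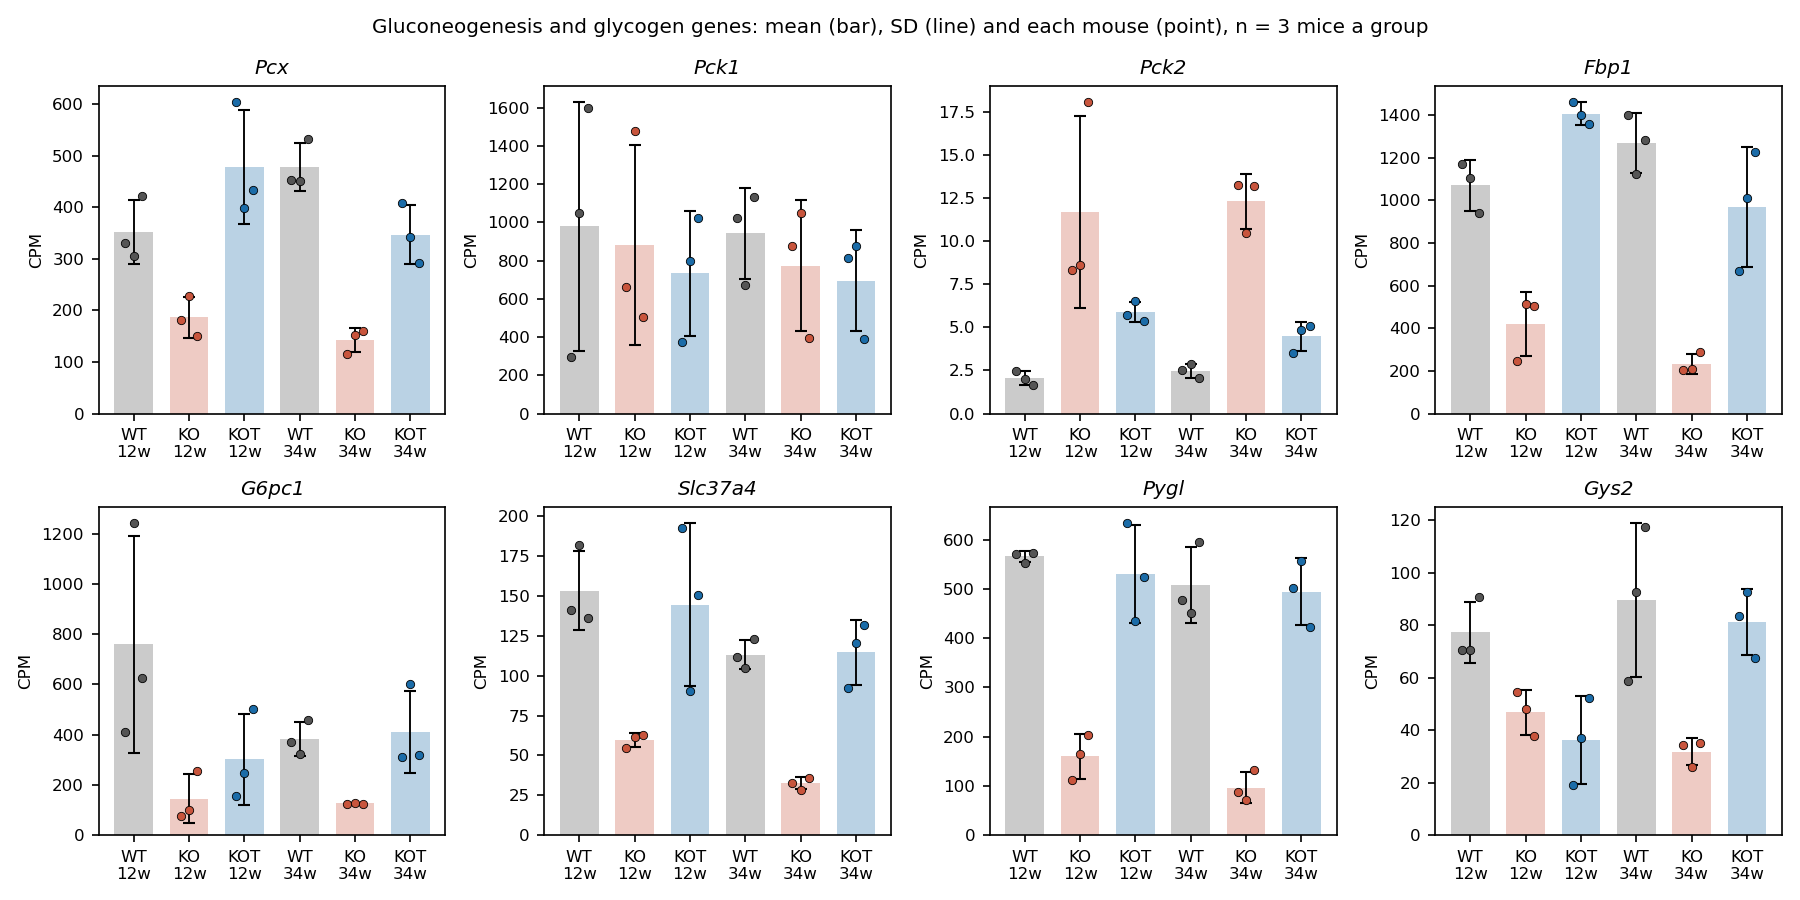
CPM of 6 gluconeogenic and 2 glycogen genes in each mouse (points), with group means (bars from 0) and SD (lines), n = 3 mice a group. Fbp1, Slc37a4 and Pygl are lower in all Lipa-/- (KO) mice than in all WT and treated (KOT) mice at both times, Pck2 is higher in Lipa-/- mice, and the Pck1 groups overlap.

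The 4 glycogen genes were called lower at 34-weeks with TMM scaling. Of these, Pygl alone kept its call with total counts, hepatocyte scaling and limma on TPM. Pygl, the liver phosphorylase that frees glucose-1-phosphate from glycogen, was at 572, 553 and 574 CPM in WT and 111, 164 and 204 CPM in Lipa-/- mice at 12-weeks, and at 477, 450.3 and 597 against 86.6, 70.8 and 132 CPM at 34-weeks. The falls were 3.55-fold and 5.26-fold (adjusted p = 5.36e-05 and 3.22e-06, edgeR). The other 3 genes were called at 34-weeks, when all 4 were lower. Gys2, the liver glycogen synthase, was at 58.9, 92.5 and 117 against 34.2, 25.7 and 35.2 CPM (-1.498 ± 0.31, adjusted p = 8.75e-04), phosphoglucomutase Pgm1 at 127, 245 and 246 against 77.6, 81.1 and 98.3 CPM (-1.26, adjusted p = 0.0249), and Ugp2, which makes UDP-glucose, at 453, 224 and 339 against 111, 95.6 and 143 CPM (-1.54, adjusted p = 0.00175). These 3 calls were lost with total counts, hepatocyte scaling or limma on TPM, and that of Pgm1 also when any of 4 mice was left out. On the TPM scale Gys2 at 12-weeks was at 37.3, 34.8 and 49.4 in WT and 54.8, 49.4 and 38.1 in Lipa-/- mice, so its TPM was not lower there. At 34-weeks its TPM overlapped too, at 26.9, 61.6 and 71.2 in WT and 44.6, 34.2 and 41.5 in Lipa-/- mice. So did that of Pgm1, at 43.8, 135 and 129 against 69.7, 54.2 and 67.4. That of Ugp2 did not overlap, at 164, 130 and 181 against 103, 68.3 and 98.6. Pygb, outside the 32 genes, rose from 3.40 ± 1.26 to 39.5 ± 12.8 CPM at 34-weeks (3.53, adjusted p = 7.64e-07), and made up 21.8% ± 0.815 of the summed TPM of both phosphorylases in Lipa-/- mice against 0.479% ± 0.235 in WT mice.

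At the branch points, G6pdx, the entry enzyme of the pentose phosphate route, rose from 10.2, 5.84 and 7.70 to 23.1, 22.4 and 37.9 CPM at 12-weeks and from 4.90, 5.99 and 7.51 to 27.3, 25.9 and 24.7 CPM at 34-weeks (1.81 ± 0.33 and 2.08 ± 0.33, adjusted p = 3.50e-04 and 7.74e-05, edgeR). Pdk4, a kinase that switches pyruvate dehydrogenase off in fasting, was at 32.9, 45.2 and 29.4 CPM in WT and 7.66, 27.9 and 6.25 CPM in Lipa-/- mice at 34-weeks (-1.36 ± 0.44, adjusted p = 0.0165), and 1 Lipa-/- mouse lay just under the lowest WT mouse. That call was lost when any of 3 mice was left out, and with total counts (-0.77), hepatocyte scaling (-0.80) and limma on TPM (-0.83).

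A further 75 genes of the same pathways, in 6 lists, were read beside the 32, and 73 of them passed the limit on reads. In Lipa-/- against WT mice 15 were called higher and 15 lower at 12-weeks, and 15 higher and 24 lower at 34-weeks. These are 41.1% and 53.4% of those tested, beside 29.3% and 36.3% of all genes. By list the share ran from 14.3% (pentose phosphate) to 57.1% (pyruvate dehydrogenase) at 12-weeks, and from 14.3% to 85.7% for the same lists at 34-weeks. The regulators, with 3 of 12 called at 12-weeks, lay below the share of all genes there. Of 15 tested genes of glycolysis and fructose use, 3 rose and 4 fell at 12-weeks and 4 rose and 5 fell at 34-weeks. Ketohexokinase (Khk), the first enzyme of fructose use, fell from 817 ± 280.3 to 68.6 ± 19.4 CPM at 34-weeks (-3.57, adjusted p = 5.83e-07), as did Tkfc (-2.05), a later enzyme of that route. Neuronal enolase (Eno2), with at most 0.118 CPM in any WT liver, reached 10.9, 8.00 and 3.93 CPM in Lipa-/- mice at 34-weeks. Pfkfb4, another maker of fructose-2,6-bisphosphate, rose (3.89 and 3.53 at 12- and 34-weeks), as did Ldhb (1.34 and 1.35).

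Of 12 tested genes that handle lactate, pyruvate and the shuttles, 3 rose and 3 fell at 12-weeks and 1 rose and 6 fell at 34-weeks. The lactate exporter Slc16a3 (MCT4) rose from 0.510 ± 0.0809 to 17.7 ± 3.97 CPM (SD, n = 3) at 34-weeks (5.12, adjusted p = 3.68e-06), and Gpd1 (-2.61) and Mdh1 (-1.99) of the glycerol phosphate and malate shuttles and the pyruvate carrier subunit Mpc2 (-1.66) fell. Of the 20 glycogen genes, 6 rose at each time and 3 and 5 fell. Among those that fell at 12- and 34-weeks were the glycogen-targeting subunits of protein phosphatase 1, Ppp1r3c (-2.49 and -4.40) and Ppp1r3b (-2.36 and -3.05), and the branching enzyme Gbe1 (-1.65 and -2.23). Glycogenin (Gyg1) rose (2.74 and 2.77), and Ppp1r3g, another targeting subunit, rose to 26.7, 20.3 and 2.499 CPM from 0.826, 0.0394 and 1.99 CPM at 34-weeks, with wide spread in both groups. Of 7 pyruvate dehydrogenase genes 2 rose at each time and 2 and 4 fell, the kinase Pdk1 (-2.46) and the phosphatase Pdp2 (-1.74) among those that fell at 34-weeks, and the phosphatase Pdp1 (2.90) among those that rose. In the pentose phosphate list of 7, Pgd rose at 12-weeks (1.14, adjusted p = 0.00679) and Rpe fell at 34-weeks (-1.23). Of 12 regulators, 3 fell at each time and 2 rose at 34-weeks, when 41.7% of them were called beside 36.3% of all genes. The carbohydrate-response factor Mlxipl (-1.83 and -2.35), the glucagon receptor Gcgr (-1.25 and -2.17) and the insulin receptor substrate Irs1 (-2.28 and -1.67) were lower at both times, and Irs2 (1.62) and Igfbp1 (4.30) rose at 34-weeks.

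In treated Lipa-/- mice at 34-weeks, none of the 32 genes was called against WT mice by edgeR, DESeq2 or limma, where 0.220% of all genes were called by edgeR, and 5 of the 32 had an unadjusted p under 0.05. The share of all genes under that limit was not computed. Pkm was at 26.3, 22.0 and 38.4 CPM beside 16.1, 25.6 and 19.3 CPM in WT mice, and Pklr at 369, 455 and 276 beside 209.8, 329 and 692 CPM. Fbp1 (668, 1011 and 1226 CPM), Pygl (503, 558 and 424 CPM) and Slc2a2 (226, 284 and 161 CPM) overlapped with the WT mice. The 5 genes with an unadjusted p under 0.05 were Ldha, lower at 698, 800.3 and 873 CPM (-0.73 ± 0.24), and, higher, Pck2 at 3.496, 4.86 and 5.06 CPM (0.84 ± 0.29), G6pdx at 10.4, 8.52 and 14.4 CPM (0.86 ± 0.32), Hk3 (0.85 ± 0.39) and Pfkp (0.66 ± 0.31), with adjusted p from 0.538 to 0.851 (edgeR). None of the 8 isozyme ratios passed the test against WT mice over both times (exact permutation test, adjusted p from 0.12 to 0.895), although Pfkl over Pfkp and Pklr over Pkm had an unadjusted p of 0.01 and 0.03. Their differences at 12-weeks were -2.85 and -2.74, and all 8 differences at 34-weeks lay between -0.58 and 0.06. Pkm made up 9.44% ± 4.68 of pyruvate kinase TPM (SD, n = 3). The macrophage markers of these mice summed to 666 ± 298 CPM, and mouse 12 alone had 785 CPM of neutrophil markers, beside 1.69 and 2.89 CPM in the others.

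Against untreated Lipa-/- mice of the same time, 11 of the 32 genes were called higher and 10 lower at 34-weeks, where 31.5% of all genes were called (12.8% higher and 18.6% lower). At 12-weeks 7 were called higher and 12 lower, where 41.5% of all genes were called (16.2% higher and 25.3% lower). With total counts the splits were 5 higher and 12 lower at 34-weeks and 1 higher and 17 lower at 12-weeks, and with hepatocyte scaling 5 higher and 11 lower and 4 higher and 16 lower. With limma on TPM they were 5 higher and 12 lower at 34-weeks and 0 higher and 18 lower at 12-weeks. At both times Hk1, Hk2, Hk3, Pfkp, Aldoa, Pkm, Slc2a1, Pfkfb3 and G6pdx were lower in treated mice, with log2 fold changes from -3.63 (Pkm) to -1.22 (G6pdx) at 34-weeks. Fbp1 (1.74 and 2.05), Pygl (1.73 and 2.36), Slc37a4 (1.27 and 1.82) and Pcx (1.36 and 1.28) were higher at 12- and 34-weeks. At 12-weeks these 4 calls were lost with total counts (0.87, 0.84, 0.35 and 0.47) and with limma on TPM, and those of Slc37a4 and Pcx also with hepatocyte scaling. At 34-weeks that of Pcx was lost in all 3 settings (0.76 with total counts). With the GC and length trend removed, 6 genes were called higher and 9 lower at 12-weeks, where 34.9% of all genes were called. Slc2a1 (-0.41, adjusted p = 0.113), Pfkl (-0.49, from -1.40) and Gpi1 (-0.72, from -1.13) were then no longer called lower, nor Pgk1 higher (0.99, from 1.43), and Pcx was at 2.42. These comparisons share the Lipa-/- mice with those above.

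At 12-weeks treated mice differed from WT mice in 15 genes, 6 called higher and 9 lower, where 25.5% of all genes were called (13.6% higher and 12.0% lower). The split was 3 higher and 12 lower with total counts, which moved the median of all genes by -0.40, 4 higher and 9 lower with hepatocyte scaling, and 0 higher and 11 lower with limma on TPM. Among the genes called higher in Lipa-/- mice, Hk3 was at 12.8, 11.5 and 6.06 CPM (2.17 ± 0.41, adjusted p = 0.00302, edgeR), Pfkp at 6.996, 5.60 and 2.91 CPM (1.75 ± 0.32, adjusted p = 0.00277) and Pck2 at 5.73, 6.52 and 5.37 CPM (1.52 ± 0.30, adjusted p = 0.00383). Each lay between the WT and the untreated Lipa-/- mice in CPM. In TPM, Pck2 of the treated mice (1.11, 1.75 and 1.36) lay within the range of the WT mice (1.94, 0.527 and 0.830). Pkm was at 37.9, 29.6 and 20.9 CPM (1.06 ± 0.34, adjusted p = 0.0243) and Hk2 at 2.04, 2.06 and 0.997 CPM (2.09, adjusted p = 0.025), and their calls were lost when single mice were left out. The macrophage markers of these livers summed to 1879 ± 994 CPM, with 8 of 12 called higher than in WT mice, and their part was not tested.

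With TMM scaling, other genes were called lower in treated than in WT mice at 12-weeks without being called lower in untreated Lipa-/- mice of that time. Pfkfb3 was at 1.55, 0.978 and 1.38 CPM, below all 5.89, 5.36 and 10.9 CPM of WT and 8.09, 9.79 and 7.72 CPM of Lipa-/- mice (-2.52 ± 0.44, adjusted p = 0.00235, edgeR). Gapdh was at 164, 801 and 1017 CPM against 1392, 1542 and 1684 CPM in WT mice (-1.22 ± 0.43, adjusted p = 0.0359), with mouse 10 lowest. Without mouse 10 the log2 fold change of Gapdh was -0.83 (adjusted p = 0.0396). Pgm1 (14.2, 70.5 and 80.2 CPM), Gys2 (19.0, 37.0 and 52.4 CPM), Pfkl (9.62, 21.8 and 15.8 CPM), Pfkm (1.26, 6.52 and 7.13 CPM) and G6pdx (1.94, 5.65 and 3.68 CPM) were also called lower, at -1.58, -1.09, -1.09, -1.33 and -1.05, and mouse 10 was the lowest treated mouse in all 5. In CPM, Pgm1, Gys2 and Pfkm were also lower in all untreated Lipa-/- than in all WT mice. Pgm1 was at 111, 102 and 80.3 against 136, 133 and 224 CPM. Gys2 was at 54.5, 47.9 and 37.7 against 70.6, 70.4 and 90.6 CPM. Pfkm was at 7.63, 7.30 and 6.99 against 13.1, 10.1 and 14.7 CPM. In TPM these groups overlapped for each gene. With the GC and length trend removed, Pfkm was called lower in untreated Lipa-/- mice too (adjusted p = 0.0178, edgeR). Set directly against the untreated Lipa-/- mice, Pfkfb3, Gapdh, Pfkl and G6pdx were lower (-2.73, -1.21, -1.40 and -2.86), of which Pfkl lost its call with the GC and length trend removed (-0.49), whereas Pgm1, Gys2 and Pfkm were not called (-0.83, -0.37 and -0.53). Pklr at 96.5, 95.7 and 222 CPM (-1.62 ± 0.42, adjusted p = 0.00976) and G6pc1 at 154, 247 and 502 CPM (-1.33 ± 0.49, adjusted p = 0.044) were lower as in untreated Lipa-/- mice. Slc2a2, at 100, 97.1 and 165 CPM, lay below all WT mice (187, 196 and 291 CPM). With TMM scaling it was called neither against WT nor against untreated Lipa-/- mice. Ugp2 went the other way, at 1148, 436 and 525 CPM against 288, 352 and 296 CPM in WT mice (1.17 ± 0.35, adjusted p = 0.0172), with mouse 10 highest.

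Leaving out single livers moved these 15 calls more than the 15 of untreated mice, which numbered 15 to 17 when each mouse was left out. Without mouse 10 of the treated group 6 genes were called (3 higher and 3 lower), and without mouse 3 of the WT group 5 (3 higher and 2 lower). The 5 genes called with each mouse left out in turn were Hk3, Pfkp, Pck2, Pfkfb3 and Pklr. Of these, 2 (Pfkfb3 and Pklr) were also called at every other setting, while limma on TPM called 0 genes higher. With the GC and length trend removed, 6 were called higher and 6 lower. Pfkl (-0.52), Pfkm (-0.98), G6pdx (-0.81) and Ugp2 (0.83) were then no longer called, Pcx was called higher (1.15, adjusted p = 0.00546, from 0.44 without the removal), and Pfkfb3 (-2.08), Pgm1 (-1.65), Gapdh (-1.49), Gys2 (-1.32), G6pc1 (-1.63) and Pklr (-1.29) stayed called lower. Ugp2 has the lowest GC content of the 32 canonical transcripts (40.4%).

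**Figure D5:**
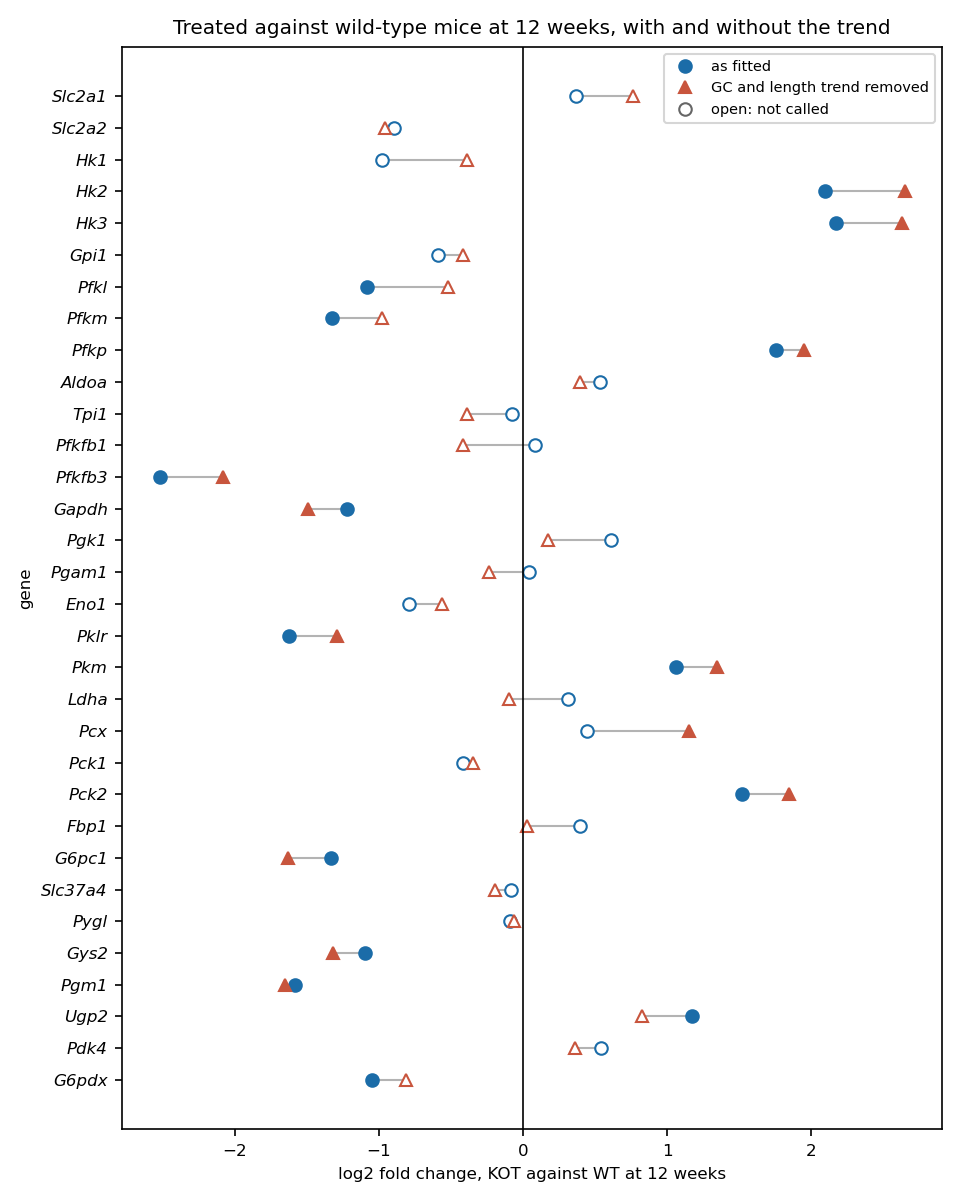
Log2 fold change of the 32 genes in rAAV8-treated Lipa-/- against WT mice at 12 weeks (3 against 3), as fitted (circles) and with each liver's trend with GC content and length removed (triangles), filled where called. Removal took the call from Pfkl, Pfkm, Ugp2 and G6pdx and gave one to Pcx.

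Between the times, none of the 32 genes was called in WT mice by edgeR, where 0.323% of all genes were called, and 4 genes had an unadjusted p under 0.05. DESeq2 called 2 of these, Hk2 (0.643, 0.239 and 0.314 CPM at 12-weeks and 0.531, 4.37 and 2.18 CPM at 34-weeks) and Pdk4 (10.1, 11.6 and 10.7 and 32.9, 45.2 and 29.4 CPM). A change with time in the difference between Lipa-/- and WT mice was called for none of the 32 genes by edgeR, DESeq2 or limma, where 0.0619% of all genes were called by edgeR, although 7 of the 32 had an unadjusted p under 0.05. For neither count of unadjusted p was the share of all genes computed. The difference between treated and WT mice changed with time in 4 genes, 2 higher and 2 lower at 34-weeks, where 18.4% of all genes were called (8.58% higher and 9.83% lower). These were Pfkfb3 (2.88 ± 0.59, adjusted p = 0.0237), G6pdx (1.90 ± 0.47, adjusted p = 0.0246), Ugp2 (-1.72 ± 0.49, adjusted p = 0.0296) and Ldha (-1.04 ± 0.34, adjusted p = 0.0442, edgeR). None of the 4 remained without mouse 9 of the treated group at 34-weeks or without mouse 3 of the WT group at 12-weeks.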

How the data were processed

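Liver RNA of 18 mice was sequenced as poly(A)-selected, paired-end libraries with spike-in RNA. The authors assigned reads with Salmon to Ensembl's annotation of GRCm39 and summarised them by gene with tximport. The deposited tables hold estimated counts per gene (19.4% of values not whole), TPM, and the effective gene length in each liver. A deposited table of the authors' own DESeq2 comparisons (version 1.40.1, R 4.3.0), with fold changes and p-values, was not used.

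Estimated counts were rounded and tested with edgeR 4.0.16 (limma 3.58.1, R 4.3.3) in 1 quasi-likelihood fit of 6 group means with TMM factors (0.587 to 1.69), over the 14533 genes with more than 100 reads. p-values were adjusted by Benjamini-Hochberg over all of them, and a gene was called at an absolute log2 fold change above 1 with an adjusted p under 0.05. In simulated counts for Lipa-/- against WT mice at 12-weeks (14533 genes, 200 changed), edgeR called 77% of the 4-fold and 60% of the 2.8-fold changes, with 3 false calls. Isozyme ratios were computed from log2(TPM + 0.1) and compared by an exact permutation test within time points, adjusted over 12 pairs, of which 4 are not reported here, with Python 3.11.15 and SciPy 1.17.1. Alternatives changed the scaling, the filter, the threshold, the tool (DESeq2 1.42.0, limma on log2(TPM + 1)), the length offsets, the groups in the fit, and the mice, each left out in turn. The removal of each liver's trend with GC content and gene length, fitted on the 98.5% of genes with a GC value, was chosen after seeing the data. No count column lacked a sample, and no 2 libraries held identical values.

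The 32 genes, the other lists and the tests were chosen with earlier results of these data known. Values for single mice are given for those of the 32 genes called in Lipa-/- or treated mice against WT mice and for their isozyme partners, and up to 3 genes per direction are named from each other list, by the size of their fold change, provided that their mean reached 1 CPM. Same-numbered WT mice of the 2 times are different animals. Intervals of depth cover counting error only, and Salmon's estimates can split reads among near-identical copies.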

Additional observations from a re-analysis of the deposited data

Results flagged for a closer look

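For 4 genes the difference between treated and WT mice changed between 12- and 34-weeks by the interaction term of edgeR's fit. They are 12.5% of the 32 genes, beside 18.4% of all genes. Pfkfb3, which makes fructose-2,6-bisphosphate, went from -2.52 to 0.36 on the log2 scale, a change of 2.88 ± 0.59 (SE, adjusted p = 0.0237). The treated mice were at 1.55, 0.978 and 1.38 CPM at 12-weeks and 4.55, 3.82 and 6.54 CPM at 34-weeks, beside 5.89, 5.36 and 10.9 and 1.36, 5.75 and 4.40 CPM in WT mice. G6pdx, the first enzyme of the pentose phosphate route, changed by 1.90, from -1.05 to 0.86, with 1.94, 5.65 and 3.68 CPM in treated mice at 12-weeks and 10.4, 8.52 and 14.4 CPM at 34-weeks. Ugp2, which makes UDP-glucose, changed by -1.72, with 1148, 436 and 525 CPM in treated mice at 12-weeks and 189, 265 and 243 CPM at 34-weeks. Ldha, lactate dehydrogenase A, changed by -1.04, with 892, 982 and 989 and 698, 800.3 and 873 CPM in treated mice and 753, 869 and 686 and 1742, 1219.8 and 976 CPM in WT mice. With the GC and length trend removed, the changes were 2.49 for Pfkfb3, 1.67 for G6pdx and -1.30 for Ugp2, all called, and -0.53 for Ldha, not called. Slc2a1 (-1.12, adjusted p = 0.029), Hk2 (-2.57, adjusted p = 0.0412) and Pcx (-1.76, adjusted p = 0.0181) were then called lower as well (edgeR), which gave 2 higher and 4 lower. With total counts, hepatocyte scaling or limma on TPM, Pfkfb3 and G6pdx were still called and Ugp2 and Ldha were not. Without mouse 10 of the treated group at 12-weeks, Pfkfb3 changed by 3.09 and G6pdx by 1.68, both still called, and Ugp2 by -1.10 (adjusted p = 0.0901) and Ldha by -1.02 (adjusted p = 0.0811), not called. None of the 4 was called without mouse 9 of the treated group at 34-weeks or without mouse 3 of the WT group at 12-weeks. Nor was any in a fit of the groups compared alone or at an adjusted p under 0.01.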

How the results depend on the processing

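Of the 32 genes' fold changes under the alternatives, 5029 kept their direction and side of the threshold, 215 lost a call, 94 gained one, 262 uncalled values changed sign, and 0 called values reversed. At an adjusted p under 0.01, 6 genes were called in treated against WT mice at 12-weeks and 0 in the change of that difference with time. At an adjusted p under 0.05, that change was called for 2 genes with hepatocyte scaling and for 0 in a fit of the groups compared alone. Between WT mice of the 2 times, 1 gene was called without the filter on reads and 2 by DESeq2. With 1 mouse left out, 5 to 17 genes were called in treated against WT mice at 12-weeks, 0 to 9 in the change of that difference with time and 0 to 1 between WT mice of the 2 times. In treated against WT mice, the ratio of Pfkl over Pfkm moved from 0.07 to -0.15 with log2(TPM + 1) and ranged from -0.17 to 0.26 with 1 mouse left out. Without mouse 11 of the treated group at 34-weeks, 2 ratios passed the test (exact permutation test, adjusted p = 0.04). Over all mice left out in turn, these ranged from -0.74 to -0.44 (Slc2a2 over Slc2a1) and from -1.89 to -1.42 (Pfkl over Pfkp). The cause of these moves was not tested. A fit with the mouse number as a replicate block called 0 genes between WT mice of the 2 times, as without the block. Same-numbered WT mice deviated from their group means with correlations of 0.08, -0.24 and 0.46 over 14533 genes, and nothing in the labels ties them. Genes with few reads in WT livers, such as Hk2, limit the precision of their fold changes.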
